A study of Homo sapiens with 6 samples.

Results

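Small nucleolar RNAs and their Cajal body relatives were followed on 6 Illumina HumanWG-6 v3 BeadChip arrays of total RNA from HEK293T cells. This human embryonic kidney line carries the SV40 large T antigen. The labels call the samples inputs, and the study took its inputs from detergent lysates of the cells before immunoprecipitation. How fully such a lysate held nucleolar and Cajal body RNA was not tested. The rows were those whose symbol begins with SNORD (C/D box small nucleolar RNAs), SNORA (H/ACA box small nucleolar RNAs) or SCARNA (small Cajal body RNAs). There were 59 of them among 37879 rows of the table: 47 SNORD, 10 SNORA and 2 SCARNA rows. The rows were selected by symbol, but the class was chosen by the group differences of SNORD13 and SNORD46, which had already been seen to exceed 2-fold on these same arrays. For that reason the differences between groups below are a description and carry no test. All cells were transiently transfected with a cationic lipid and all were held in prometaphase with nocodazole, a drug that blocks spindle assembly, at 50 ng/ml for 15 h per the labels (the methods text states longer). The 3 control samples received an empty vector. The 3 Stau1 samples received a plasmid coding for Stau155-FLAG, the FLAG-tagged 55-kDa isoform of the double-stranded RNA-binding protein Staufen1. The labels do not say whether the samples of a group came from separate cultures, so the spread between them may be technical.

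C/D box RNAs guide the methylation of riboses in ribosomal RNA, and H/ACA box RNAs guide the conversion of uridines into pseudouridines. Each works inside a particle with a fixed set of core proteins, fibrillarin being the methylase of the first and dyskerin the pseudouridine synthase of the second. Small Cajal body RNAs do the same for the small nuclear RNAs of the spliceosome. In human cells most of these RNAs are cut out of the introns of a host gene, very often one for a ribosomal protein, and a few are transcribed from a gene of their own. Mature small nucleolar RNAs have no poly(A) tail, while the labelling kit used here primes from poly(A), so whether a row read mature RNA, a precursor or an unspliced host intron was not tested and cannot be told apart on these arrays. For the same reason fewer copies of an RNA and a different tailing or processing of it cannot be told apart.

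The hosts set the scene for the comparison with the small RNAs further on, so the start sites of 5 of them are shown. In RefSeq (GRCh38.p14), 26 genes enclosed a member on the same strand, and 20 of these had a start sequence. Host genes for small nucleolar RNAs are known for a terminal oligopyrimidine tract, a C at the start followed by pyrimidines, through which their translation is controlled. The gene strand was searched at the annotated first base only for C followed by at least 4 further letters C or T. This was met in 10 of the 20 hosts (50.0%), against 4.0% of 27305 genes. Each line below runs from 14 bases before the start to 16 bases from it, and capitals mark the tract.
RPS3 (host of SNORD15B), chr11:75399504-75399533, plus strand: cccgcgagccacttCCTTTCCTTTCagcgg
RPL13A (host of SNORD35A), chr19:49487594-49487623, plus strand: gacaaaacctcctcCTTTTCCaagcggctg
RPL7A (host of SNORD36A and SNORD36C), chr9:133348204-133348233, plus strand: cacaattccctttcCTTTCTCTCTCCTCCC
RPL3 (host of SNORD43), chr22:39319608-39319637, minus strand: taaggccgaccggcctctaccggcgggatt
NOP56 (host of SNORD56), chr20:2652618-2652647, plus strand: agcgcgctagccgcattgcgagccgaaccc
The first 3 carry the tract and the last 2 have no match at the annotated base, which says only that these letters are not there. SNORD13 is one of the members with a gene of its own, and no other gene enclosed it.

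Control replicate 3 correlated more with the Stau1 arrays than with the other controls over the whole table, which bears on each difference below. Over the 13285 rows kept for comparison, Pearson's r of this array with the Stau1 arrays was 0.995 to 0.996. It was 0.987 and 0.992 with control replicates 1 and 2. Those 2 controls had an r of 0.990 with each other, which lay between these values. Control replicate 2 had an r of 0.991 to 0.994 with the Stau1 arrays, and control replicate 1 had 0.989 to 0.991. In 70.1% of these rows control replicate 3 was nearer to the Stau1 mean than to that of control replicates 1 and 2. The share was 83.3% for the kept members, 88.9% for their kept hosts and 86.2% for the particle proteins. The Stau1 mean rests on 3 arrays with a smaller median SD (0.12, against 0.17 between controls), and the other mean on 2. A majority can arise from this without any likeness, and no such share was taken for another control. STAU1, the gene on the plasmid, had log2 values of 11.19, 11.38 and 11.36 in control and 11.39, 11.51 and 11.47 in Stau1 arrays, with control replicates 2 and 3 just under the lowest Stau1 array. Whether a sample was exchanged or prepared differently was not tested, and the groups are used as labelled.

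Signal was seen for most members, and most completely for the H/ACA class. A row was kept when its detection p, the position of its signal among the negative control beads of the array, was under 0.05 on at least 3 of the 6 arrays. By this filter 36 of the 59 members were kept (61.0%), against 13285 of all 37879 rows (35.1%). All 10 SNORA rows were kept, 25 of 47 SNORD rows (53.2%) and 1 of 2 SCARNA rows. On all 6 arrays 26 members were detected, and 20 were detected on none. The number of members detected was 27, 33 and 39 on control replicates 1, 2 and 3 and 37, 36 and 35 on Stau1 replicates 1, 2 and 3. Control replicate 1 had the fewest and control replicate 3 the most, and these arrays also had the fewest and the most detected rows in all (12730 and 13469). The kept members just inside the filter were SNORA66, SNORD30 and SNORD100, for which the detection p of rank 3 among the 6 arrays was 0.0395, 0.0303 and 0.0264. Just outside lay SNORD4B, SNORD14B and SNORD48, at 0.0632, 0.0698 and 0.105.

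Among the members that were not kept were all 6 rows of the imprinted cluster on chromosome 15 (SNORD64, SNORD107, SNORD108, SNORD109B, SNORD116-2 and SNORD116-4), whose loss is known from Prader-Willi syndrome. Their detection p was at best 0.158, for SNORD64. SNORD48, a common reference in assays of small RNA, was detected on 0 arrays, with signal intensities from 79.5 to 114 against background means from 74.6 to 92.7. SCARNA15 was likewise detected on none. These rows are not above background here, which sets no level for the RNAs themselves.

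**Figure D1:**
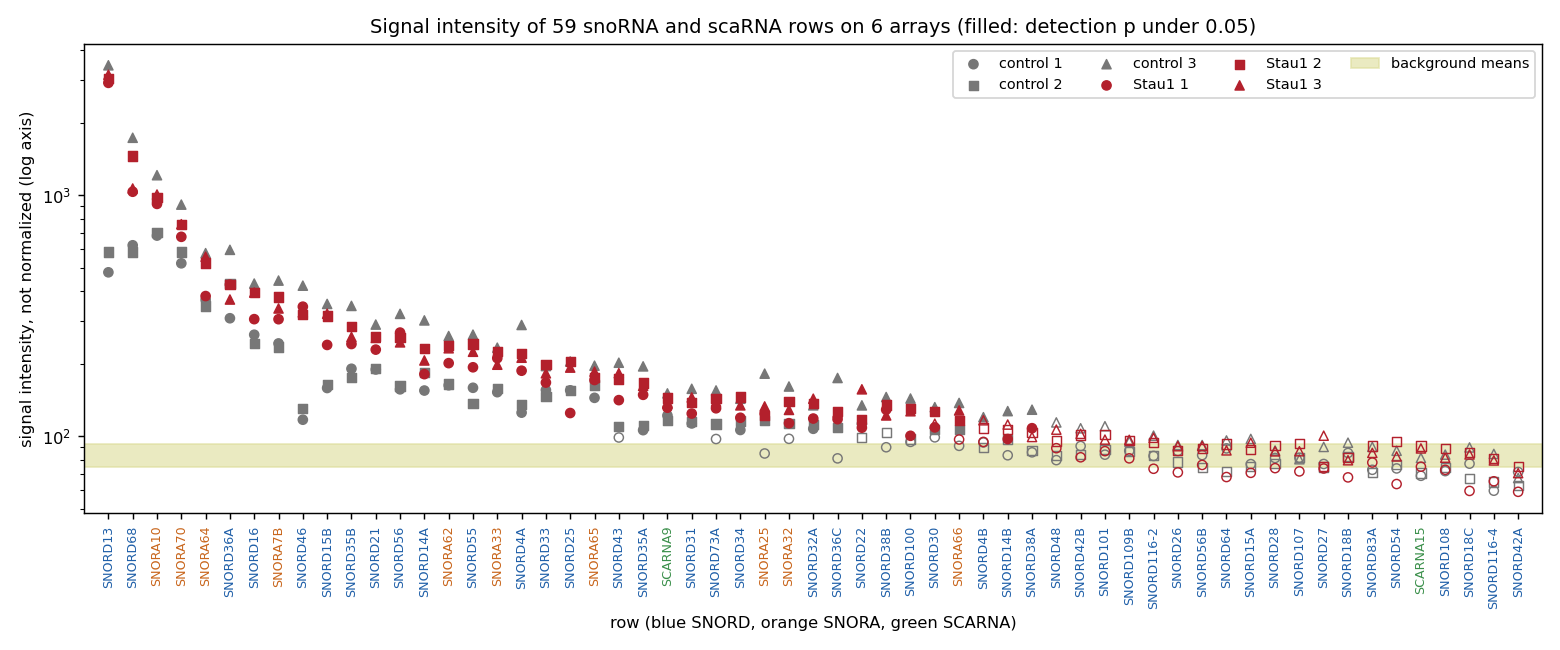
Signal intensity as deposited (log axis) of the 59 rows on each of the 6 arrays, ordered by mean intensity, with control arrays in grey and Stau1 arrays in red; filled symbols have a detection p under 0.05 and the band spans the 6 background means. From SNORD13 down through the brighter rows, control replicates 1 and 2 mostly lie lowest while control replicate 3 lies with or above the Stau1 arrays.

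The brightest rows were SNORD13, SNORD68, SNORA10, SNORA70, SNORA64 and SNORD36A. Intensities are those of single probes and are not compared as amounts of RNA between genes. SNORD13 (U13) pairs with 18S ribosomal RNA and directs an acetylation in it. Its signal intensity before normalization was 479, 582 and 3463 on control replicates 1, 2 and 3 and 2928, 3049 and 3164 on the Stau1 arrays. A pair of controls thus lay far below the other 4 arrays, and control replicate 3 had the highest signal of all. After background correction and quantile normalization the log2 values were 9.07, 9.13 and 11.41 in control and 11.59, 11.42 and 11.47 in Stau1 arrays, or 9.87 ± 1.34 (SD, n = 3) against 11.49 ± 0.09 (SD, n = 3). The difference between group means, Stau1 minus control, was 1.62 (SE 0.44) on the log2 scale, or 3.08-fold. It was smaller than the log2 gap of 2.31 between control replicate 3 and the mean of the other controls, a 4.97-fold difference inside one group.

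SNORD46, a C/D box methylation guide, also had control replicates 1 and 2 lowest, at lower signal. Its intensity was 117, 130 and 421 on the control arrays and 345, 320 and 326 on the Stau1 arrays. On the log2 scale this gave 5.91, 6.13 and 8.10 in control and 8.25, 7.81 and 7.88 in Stau1 arrays. The groups overlapped, since control replicate 3 lay above 2 of the 3 Stau1 arrays. The log2 difference was 1.27 (SE 0.41), or 2.40-fold, and with the background inferred from all rows in place of rows of 1 probe it was 0.16. Control replicate 3 stood 4.21-fold above the mean of the other controls.

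The next 6 members by size of difference were all C/D box guides, and in each of them control replicate 3 was again apart from the other controls. SNORD43 was 5.30, 5.61 and 6.68 in control and 6.43, 6.50 and 6.65 in Stau1 arrays (log2 values), a difference of 0.66. SNORD15B was 6.83, 6.74 and 7.78 in control and 7.57, 7.77 and 7.85 in Stau1 arrays, a difference of 0.62. SNORD35A was 5.53, 5.64 and 6.61 in control and 6.55, 6.40 and 6.34 in Stau1 arrays, a difference of 0.50. In SNORD43 and SNORD35A control replicate 3 was the highest array of all, and in SNORD15B it lay among the Stau1 arrays. SNORD56 was 6.80, 6.71 and 7.60 in control and 7.80, 7.37 and 7.31 in Stau1 arrays, a difference of 0.46. SNORD4A was 6.13, 6.26 and 7.41 in control and 7.06, 7.06 and 6.99 in Stau1 arrays, a difference of 0.43. SNORD68 was 9.49, 9.13 and 10.36 in control and 10.03, 10.30 and 9.85 in Stau1 arrays, a difference of 0.40. All 6 rows overlapped between groups through this 1 array, and in all 6 both other controls lay below every Stau1 array. With the background inferred from all rows, SNORD43, SNORD15B, SNORD35A, SNORD56 and SNORD4A differed by 0.04, 0.09, 0.03, 0.06 and 0.03, and SNORD68 by 0.36.

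**Figure D2:**
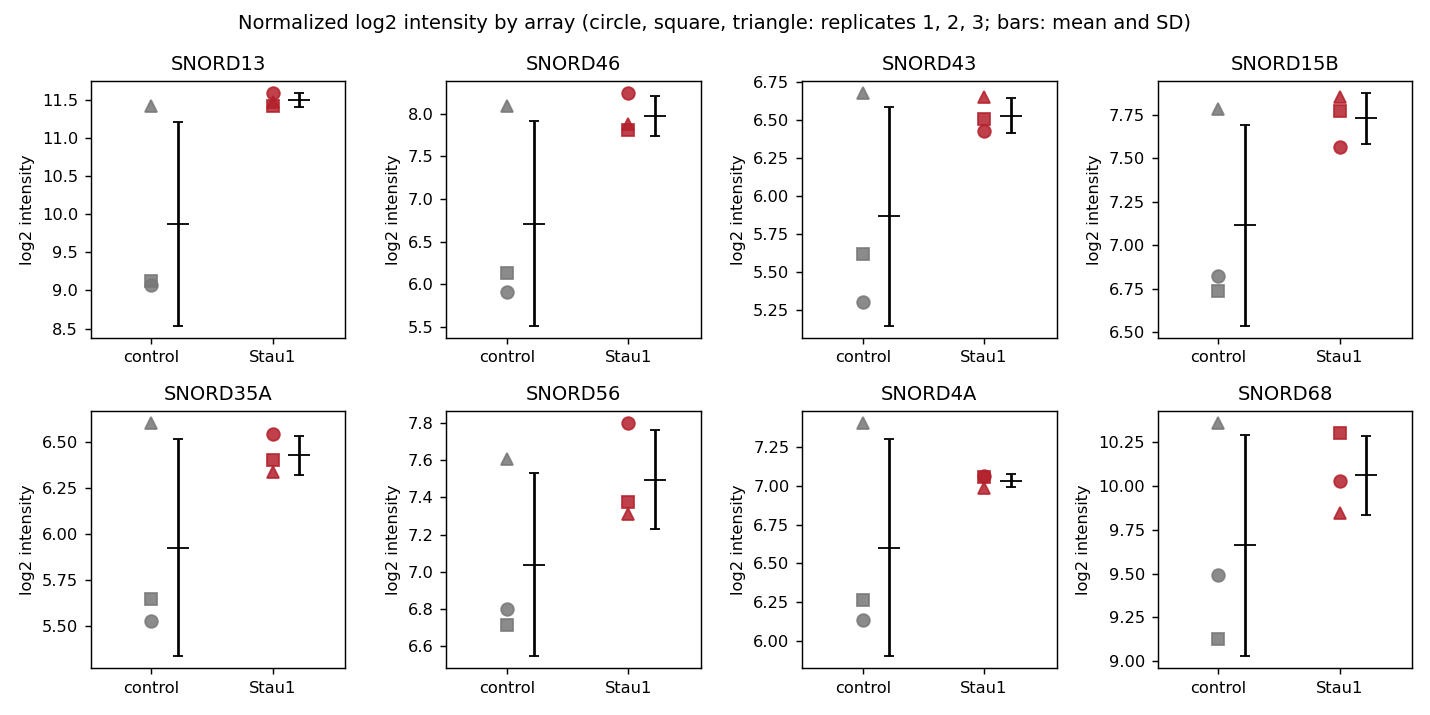
Normalized log2 intensity of the 8 rows with the largest difference between groups, control in grey and Stau1 in red, with a circle, square and triangle for replicates 1, 2 and 3 and bars for mean and SD (n = 3); each panel has its own axis. In all 8 panels the control triangle (replicate 3) sits at or near the height of the Stau1 arrays and the other controls below them; SNORD13 runs from 9.07 to 11.59.

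The remaining bright and marked rows differed little between groups. SNORA10 was 9.63, 9.42 and 9.80 in control and 9.85, 9.67 and 9.75 in Stau1 arrays, SNORA70 stood between 9.13 and 9.36 on all 6 arrays, and SNORA64 between 8.26 and 8.81. SNORA10, SNORA64 and SNORA70 are H/ACA pseudouridylation guides, and SNORA70 (U70) has several near-identical copies in the genome, so its row may read more than one of them. SNORD36A, a C/D box guide, had the lowest difference of the class, -0.18 (SE 0.16), with 8.26, 8.63 and 8.68 in control and 8.60, 8.32 and 8.10 in Stau1 arrays. SNORD25 (-0.10) and SNORD14A (-0.07) were the only other kept members with a lower mean in Stau1 arrays. SCARNA9, the kept Cajal body RNA and a guide for U2 small nuclear RNA, was 6.04, 5.79 and 5.97 in control and 6.24, 6.01 and 5.84 in Stau1 arrays, a difference of 0.10 (SE 0.16), and its groups overlapped.

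A few members are needed for the cutting of ribosomal precursor RNA. SNORD14A is a copy of U14, which pairs with 18S ribosomal RNA in the early precursor. Its log2 values were 6.76, 7.02 and 7.49 in control and 6.99, 7.15 and 6.93 in Stau1 arrays, with control replicate 3 the highest of all. SNORD22 (U22), also required for 18S processing, was 5.75, 5.29 and 5.68 in control and 5.68, 5.42 and 6.24 in Stau1 arrays, a difference of 0.21 (SE 0.20), with overlapping groups. SNORD22 shares the non-coding host SNHG1 with SNORD25, SNORD30 and SNORD31 among kept members. The other 3 differed by -0.10, 0.04 and 0.13, so none of the 4 approached the differences of SNORD13 and SNORD46.

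By class, the median log2 difference between groups was 0.26 over the 25 kept SNORD rows and 0.12 over the 10 SNORA rows. For all 36 kept members it was 0.20, beside -0.0021 over all 13285 kept rows. The difference was above 0 in 33 of 36 members, namely in 22 of 25 SNORD rows, 10 of 10 SNORA rows and SCARNA9, and in 49.4% of all kept rows. SNORD differences ran from -0.18 to 1.62 and SNORA differences from 0.02 to 0.30. Since filter and choice of class both used these arrays, nothing is read from these counts. Groups did not overlap in 2 members, SNORD13 and SNORD32A, both higher in Stau1 arrays, where 4.51% of all kept rows were higher without overlap and 3.40% lower. SNORD32A was 5.58, 5.67 and 5.68 in control and 5.94, 5.85 and 5.99 in Stau1 arrays. SNORD13 and SNORD46 were past 2-fold, and these 2 were among 3 such rows in all (0.0226%).

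In the fit over the whole table limma called 0 of 13285 rows at an adjusted p under 0.05 (0% of rows, lowest adjusted p 0.999), and so 0 members. Without adjustment, 495 rows had a limma p under 0.05 (3.73%), among them 4 members. The methods' t-test, named in the study for another comparison, gave 464 rows, of which 1 was a member, and 0 after adjustment. For a single row an exact two-sided permutation test of 3 arrays against 3 cannot go below p = 0.1.

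**Figure D3:**
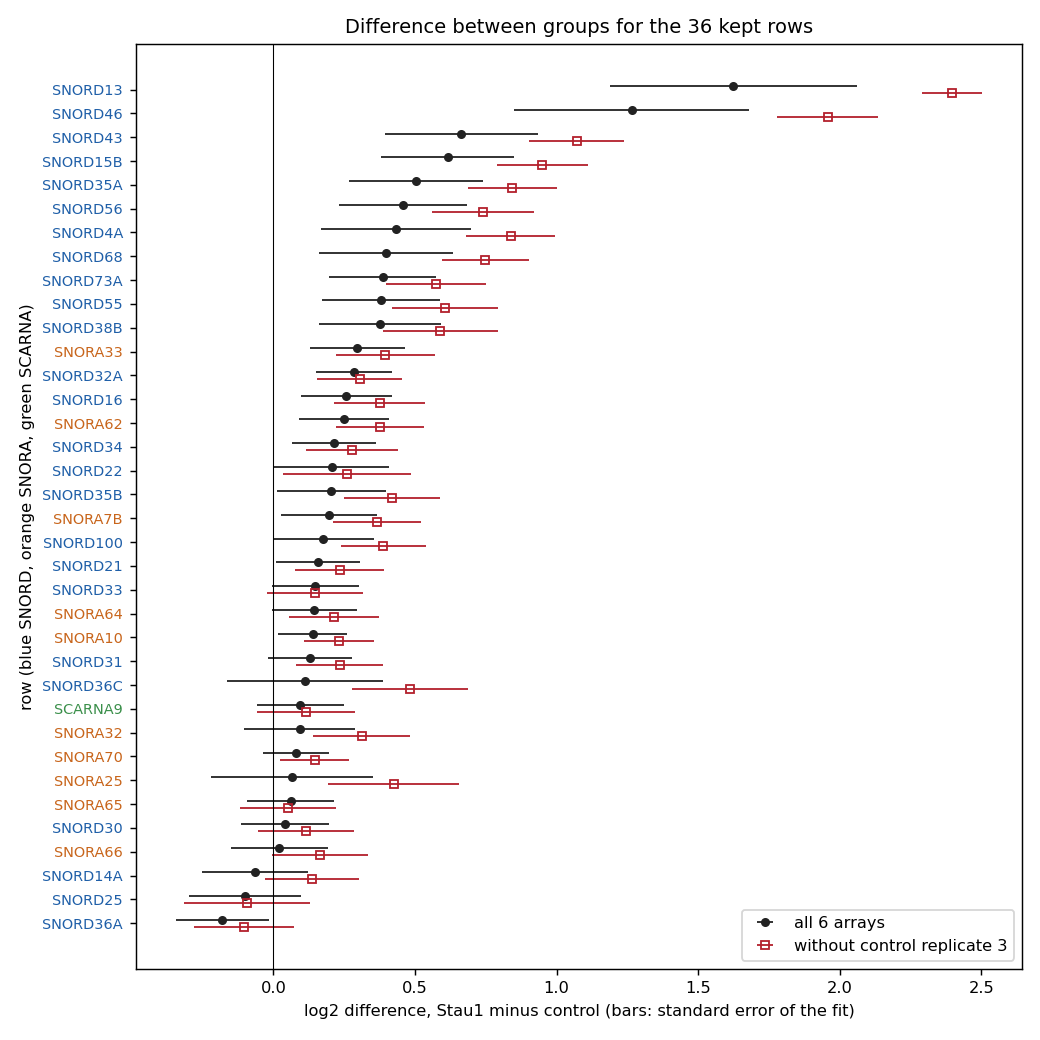
Log2 difference between group means (Stau1 minus control, with the standard error of the limma fit) for the 36 kept rows, from all 6 arrays (black circles) and without control replicate 3 (red squares). With all arrays the values run from -0.18 (SNORD36A) to 1.62 (SNORD13), and most red squares lie to the right of their black circles with shorter bars.

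The members varied more between control arrays than between Stau1 arrays. The median SD between control arrays was 0.33 (log2) over the kept members, 0.39 over SNORD rows and 0.22 over SNORA rows, beside 0.17 over all kept rows. Between Stau1 arrays it was 0.13, 0.13 and 0.14, beside 0.12 over all kept rows, so the members' median spread was close to that of other rows in this group alone. The 6 largest SDs between controls were those of SNORD13 (1.34), SNORD46 (1.20), SNORA25 (0.75), SNORD36C (0.74), SNORD43 (0.72) and SNORD4A (0.70). SNORA25, an H/ACA guide in TAF1D, was 4.94, 5.79 and 6.44 in control and 6.08, 5.53 and 5.76 in Stau1 arrays. SNORD36C was 4.87, 5.60 and 6.34 in control and 5.92, 5.64 and 5.58 in Stau1 arrays. In both rows control replicate 1 lay below every Stau1 array and control replicate 3 above, and the group means differed by only 0.07 and 0.11.

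In most members this spread had 1 direction. Control replicate 3 lay above both other controls in 31 of 36 members (86.1%), against 32.3% of all kept rows. This held in 22 of 25 SNORD rows and 9 of 10 SNORA rows. SNORD13 and SNORD46, by which the class was chosen, are among these members. SNORD100 and SNORD38B were detected on control replicate 3 and the Stau1 arrays but not on control replicates 1 and 2. The members' shares, gaps and spreads are therefore a description, and nothing is read from them. The median of control replicate 3 minus the mean of the other controls was 0.47 on the log2 scale over the members, 0.63 for SNORD and 0.34 for SNORA rows, against -0.0036 over all kept rows. Relative to each row's mean over 6 arrays, the members' median was -0.21, -0.26 and 0.24 on control replicates 1, 2 and 3 and 0.16, 0.15 and 0.05 on Stau1 replicates 1, 2 and 3. For all kept rows these medians stayed between -0.0020 and 0.0028. After these values had been seen, all rows with a mean log2 intensity between 5.82 and 7.42 were set beside the members. This is the interquartile range of the kept members, and the part of low intensity in their spread was not tested. Over these 3252 rows the median gap was -0.0014, control replicate 3 lay above both others in 32.7%, and the median SD between controls was 0.21. Over the 18 members in that range the gap was 0.47, the count 14 (77.8%) and the SD 0.30. The standard error over beads was a median 4.37% of the intensity for the members (at most 7.09%), from a median of 30.5 to 52 beads per row. This covers the measurement on 1 array and not differences between samples.

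**Figure D4:**
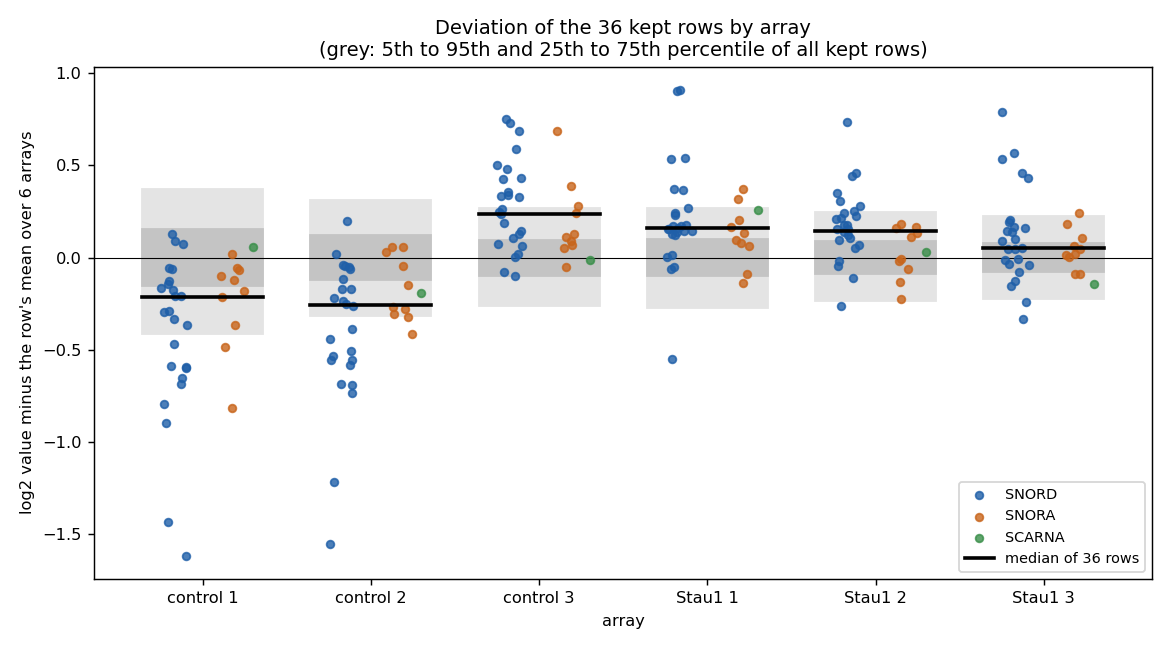
Log2 value minus the row's mean over the 6 arrays for the 36 kept rows, by array, with SNORD in blue, SNORA in orange and SCARNA in green; black bars are medians over the 36 rows and the grey boxes hold the 5th to 95th and 25th to 75th percentiles of all 13285 kept rows. The medians are -0.21 and -0.26 on control replicates 1 and 2 and 0.24 on control replicate 3, while the grey boxes are centred near 0 on every array.

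Over the whole table control replicate 3 also had the highest mean intensity before normalization, 617 against 429 and 481 on the other controls and 473, 555 and 557 on the Stau1 arrays. Its part in the members' deviations was not tested. RNA quality and the day of transfection or labelling were not given per sample, and their part in the pattern was not tested. The HEK293T markers were detected in 7 of 10 rows and the mitotic ones in 10 of 10, and limma called 0 of these (2 mitotic rows at an unadjusted p under 0.05). Leukocyte, endothelial, fibroblast and erythroid lists had 2 of 4, 2 of 3, 1 of 5 and 1 of 4 rows kept.

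Because control replicate 3 lay apart from the other controls for the class, the groups were compared again without it, as one of 6 fits that each left out 1 array. limma then called 39 rows (0.294% of 13285), 35 of them higher in Stau1 arrays (0.263%), and 6 of the 39 were members. These were SNORD13, SNORD46, SNORD43, SNORD15B, SNORD35A and SNORD4A, all higher in Stau1 arrays, with log2 differences of 2.40, 1.96, 1.07, 0.95, 0.84 and 0.84. Leaving out any other array gave 0 calls. The groups did not overlap in 23 of 36 members, all higher in Stau1 arrays, against 15.2% of all kept rows in that direction, and 3 members were past 2-fold, among 12 such rows in all (0.0903%). The median difference was then 0.37 over the members, 0.42 for SNORD and 0.27 for SNORA rows. When the values were prepared in 5 other ways, 2 to 5 members were called without this array, and SNORD13 and SNORD46 were among them each time. These calls rest on leaving out an array after its values were known, and on a class chosen by SNORD13 and SNORD46. They are given as a description, and nothing is read from these 2 rows being called each time.

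The host genes varied less between controls than the RNAs inside them. For 26 kept members the host row was also kept, in 18 hosts. Apart from NOP56 and TAF1D these were ribosomal protein genes or, for RPL32P3, a pseudogene of one. The member had the larger SD between controls in 24 of 26 pairs, with medians of 0.35 for members and 0.10 for hosts. Control replicate 3 exceeded the mean of control replicates 1 and 2 for 24 of the 26 members and for 6 of the 18 hosts. The members' side of these counts carries the limit of choice and filter stated above. The hosts' gap ran from -0.25 (RPL13A) to 0.36 (TAF1D) and that of their members from -0.03 (SNORA65) to 1.22 (SNORD43). Between groups the hosts differed by -0.18 (RPL4) to 0.13 (TAF1D) with a median of -0.01, and limma called 0 of the 18, with 0 at an unadjusted p under 0.05 by limma and by the methods' t-test.

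RPL3, the host of SNORD43, was 14.74, 14.70 and 14.69 in control and 14.71, 14.66 and 14.71 in Stau1 arrays, an SD of 0.03 between controls where SNORD43 had 0.72. Most hosts were far brighter than the members, up to a mean intensity of 41697 for RPS12, and the part of this brightness in their smaller spread was not tested. RPL7A, with a mean intensity of 1482, was 10.40, 10.61 and 10.45 in control and 10.52, 10.34 and 10.37 in Stau1 arrays. RPL13, the host of SNORD68, was 10.97, 10.98 and 10.77 in control and 10.91, 10.88 and 10.95 in Stau1 arrays, and RPL23A, the host of SNORD4A, was 11.08, 11.20 and 10.94 in control and 10.88, 11.04 and 11.04 in Stau1 arrays. The exception was TAF1D, a subunit of the RNA polymerase I factor SL1 with a mean intensity of 250, whose control values of 6.97, 7.53 and 7.61 had an SD of 0.35. It holds SNORA25 and SNORA32, with SDs of 0.75 and 0.44.

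Members of a single host also differed among themselves. RPL13A, whose start is shown above, encloses SNORD32A, SNORD33, SNORD34 and SNORD35A, all C/D box guides. Control replicate 3 minus the mean of the other controls was 0.06, -0.0021 and 0.19 for the first 3 and 1.02 for SNORD35A, against -0.25 for RPL13A itself. RPL7A holds SNORD36A and SNORD36C, for which the same gap was 0.23 and 1.11. SNORD36A and SNORD36C, like SNORD4A and SNORD4B or SNORD15A and SNORD15B, are related in sequence, and how far a probe of one reads the other was not tested.

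**Figure D5:**
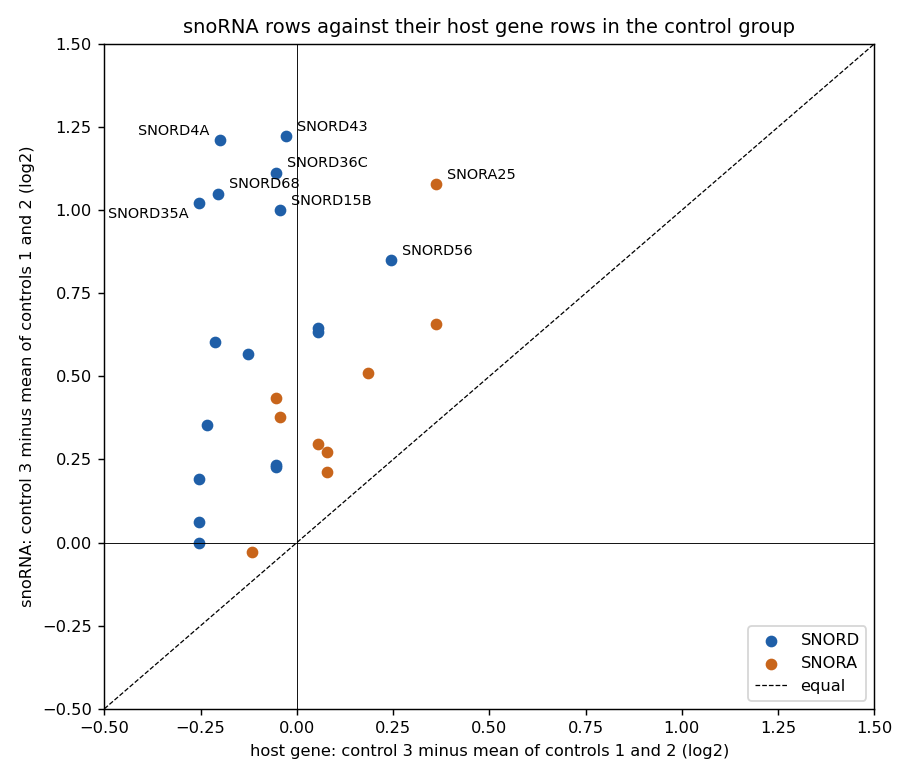
Control replicate 3 minus the mean of control replicates 1 and 2 (log2) for 26 kept snoRNA rows (vertical axis) against their host gene rows (horizontal axis), SNORD in blue and SNORA in orange, with the dashed line where both are equal and the members above 0.8 named. All 26 points lie above the line, hosts between -0.25 and 0.36 and members up to 1.22.

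The genes for the proteins that build and hold these RNAs differed little between groups. The 32 symbols listed for core proteins, assembly, transport, Cajal body and end processing fell on 31 rows, since XPO1 and CRM1 name 1 gene. Of these rows 29 were kept. limma called 0 of the 29, with 0 at an unadjusted p under 0.05 by limma and by the methods' t-test. The median log2 difference was 0.02, with 15 higher and 14 lower in Stau1 arrays. The highest were NUFIP1 (0.18), an assembly factor of C/D box particles, and RRP9 (0.16), a protein of the U3 particle. The lowest were PIH1D1 (-0.14), a subunit of the R2TP assembly complex, and XPO1 (-0.10), the exportin that also takes part in moving U3. Fibrillarin (FBL) was 13.27, 13.18 and 13.19 in control and 13.31, 13.17 and 13.23 in Stau1 arrays, and dyskerin (DKC1) stood between 12.87 and 13.10 on all 6 arrays. NOP58, a C/D box core protein, had the widest control values of the named proteins, 10.07, 10.86 and 11.08, with control replicate 1 alone low.

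Other small structured RNAs had 5 rows, of which RNU12 and RNU2-1 (spliceosomal) were detected on 0 arrays. RN7SK, which holds the elongation factor P-TEFb, RN7SL1, the RNA of the signal recognition particle, and RPPH1, the RNA of ribonuclease P, were kept. Their log2 differences between groups were 0.14, 0.14 and 0.32, and in all 3 control replicate 3 lay above both other controls, by 0.29, 0.38 and 0.66 over their mean. limma called 0 of the 3, with 0 at an unadjusted p under 0.05. TERC, the telomerase RNA, is no member by its symbol but carries an H/ACA domain, and it was looked up after the values of the class had been seen. It was 5.61, 5.48 and 6.74 in control and 6.82, 6.50 and 6.43 in Stau1 arrays, a difference of 0.64 (SE 0.27), with overlapping groups and control replicate 3 again beside the Stau1 arrays.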

How the data were processed

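Total RNA of the input lysates was hybridised to 6 arrays (3 control, 3 Stau1, grouped by the transfection in the labels). Per the file headers the table was a BeadStudio gene profile without normalization, so the deposited intensity of a row is a mean over the probes of 1 gene, and 58 of the 59 members met the criterion for rows of 1 probe below. Deposited beside it were a detection p-value, a bead standard error on the intensity scale and a number of beads, which was used to find rows of 1 probe. The genome build and a slide for each array are not given in the sources used here. The authors' background correction, variance stabilization and spline normalization were stated for immunoprecipitated RNA and were not part of these values.

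Values were made with limma 3.58.1 (R 4.3.3) by normexp, with the background inferred from detection p-values of the 30932 rows of 1 probe (whole bead counts and detection p in steps of 1 in 759, tolerance 0.002 steps), an offset of 16, quantile normalization and log2. Rows with detection p under 0.05 on at least 3 of 6 arrays were kept, and lmFit with eBayes (variance trend) was run on all of them with Benjamini-Hochberg adjustment at 0.05. The number of arrays limits the precision. Replicate numbers were not used as pairs, since the deviations of same-numbered arrays correlated at 0.015, 0.26 and -0.139. The fit was tested on simulated data. Members, lists and tests were chosen with earlier results of these data known. Rows were named by rule: SNORD13 and SNORD46, the 8 largest differences, the 6 largest control SDs, the 6 brightest, kept SCARNA, ribosomal processing and imprinted rows, 3 rows either side of the filter, their hosts, and 2 particle proteins per direction; other rows were named after their values were seen. Hosts and start sequences came from RefSeq (GRCh38.p14), where all 59 members matched a symbol. Versions of Python (3.11.15), pandas (2.3.3) and matplotlib (3.10.9) were used for lists and figures. Alternatives were other backgrounds, offset, normalizations, filters and tests, and leaving out each array after normalization. Leaving it out before normalization, other preparations without control replicate 3, and the rows of like intensity were added after the data were seen.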

Additional observations from a re-analysis of the deposited data

How the results depend on the processing

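The number of rows called by limma was 0 under the alternatives that kept all 6 arrays, and leaving out 1 array gave 0 to 39 (0 to 47 when normalized again), the upper ends without control replicate 3. Members called ran from 0 to 6 likewise. SNORD13 kept its direction throughout (1.22 to 2.40 on leaving out 1 array). SNORD46 ran from 0.87 to 1.96 on leaving out 1 array and fell to 0.16 with the background from all rows. That background also put the SNORD median at 0.0203 and the median over all kept members at 0.0217. The members' median SD between controls was 0.0391 with it, 0.1927 with no background correction, 0.1751 with no filter and 0.4797 with median scaling. The SNORA median was 0.0318 with the background from all rows. On leaving out 1 array it ran from 0.0737 to 0.271, and normalized again it was 0.2651 without control replicate 3. The number of members without overlap was 1 with median scaling, 4 with no filter, 1 with detection p under 0.01 on all arrays, and 2 to 23 on leaving out 1 array, the highest without control replicate 3; normalized again, the counts were 4, 23, 5 and 6 without control replicates 1 and 3 and Stau1 replicates 1 and 3. Members past 2-fold numbered 1 with no background correction, 1 with the background from all rows, 1 with an offset of 50, 1 with detection p under 0.01 on all arrays, and 1 to 3 on leaving out 1 array. Members kept were 59 with no filter and 18 with detection p under 0.01 on all arrays. The range of the members' median over the arrays was 0.50 as reported, 0.284 with no background correction, 0.0493 with the background from all rows, 0.8222 with median scaling and 0.2406 with no filter. Median scaling also moved the median difference of all rows to 0.0679. Besides SNORD13 and SNORD46, of 332 differences of named members under alternatives, 25 turned in sign and 4 moved beyond the spread of their arrays. The 4 were those of SNORD43, SNORD15B, SNORD35A and SNORD56 with the background from all rows. Signal over background limits the 23 members that were not kept. The cause of each shift was not tested beyond this.

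With a replicate block limma called 0 rows (604 at an unadjusted p under 0.05, 4 of them members). The numbers do not pair the arrays, and no call changed. Array weights gave 0 calls, with 1297 rows at an unadjusted p under 0.05, 13 of them members, and a lowest adjusted p of 0.0555. A slide block was not run, since no slide is named for an array.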
